A study of Mus musculus with 12 samples.

Results

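Prdm16 and 7 genes tied to it were described across 12 mammary tumors. The 8 genes are Prdm16, its paralog Mecom, and the known partners Ppargc1a, Cebpb, Ehmt1, Ctbp1, Ctbp2 and Ebf2, out of 54532 genes listed in the tables. The genes were taken by name, with earlier results of these data known. Prdm16 was chosen by its low values in all 4 MSU-42011 tumors, so its contrasts with that group are a description with no test. All 8 genes passed a filter on low counts that left 15504 genes to test.

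RNA-seq of poly(A) RNA was performed on tumors of female MMTV-Neu mice, 4 tumors per diet. All mice of the 3 groups carry a Neu transgene without an activating mutation, the rodent counterpart of HER2, which the MMTV promoter drives in the mammary gland. Feeding began when a tumor measured 4 mm across and lasted 10 days. The control group received powdered chow mixed with a vehicle of ethanol and coconut oil. The other groups received chow with MSU-42011 or with bexarotene dissolved in this vehicle, each at 100 mg per kg of diet. Both compounds are agonists of the retinoid X receptor (RXR), a nuclear receptor that pairs with other nuclear receptors on DNA. Each group held 4 mice and 4 tumor samples. The age of the mice is not given in the sources used here, and p-values measure the spread between these tumors. The comparison asks how the 2 agonists differ in the genes they regulate in these tumors.

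PRDM16 is a zinc finger protein with a PR domain that directs precursor cells towards brown and beige fat. It acts through partners: it activates genes with PGC-1α (encoded by Ppargc1a) and C/EBPβ (Cebpb), silences genes with the corepressors CtBP1 and CtBP2, and binds the histone methyltransferase EHMT1. EBF2 is a transcription factor of brown fat precursors that acts with it. MECOM shares the domain structure of PRDM16, also binds CtBP, and is known for its role in blood stem cells and leukemia.

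The tables place Prdm16 (ENSMUSG00000039410) at chr4:154316125-154636873 on the minus strand, Mecom (ENSMUSG00000027684) at chr3:29951296-30548008 on the minus strand, Ppargc1a (ENSMUSG00000029167) at chr5:51454250-51567726 on the minus strand, Cebpb (ENSMUSG00000056501) at chr2:167688915-167690418 on the plus strand. They place Ehmt1 (ENSMUSG00000036893) at chr2:24789928-24919614 on the minus strand, Ctbp1 (ENSMUSG00000037373) at chr5:33247723-33274994 on the minus strand, Ctbp2 (ENSMUSG00000030970) at chr7:132987563-133124354 on the minus strand, and Ebf2 (ENSMUSG00000022053) at chr14:67233292-67430918 on the plus strand. These coordinates are those of GRCm38 in GENCODE release M21 for 98.3% of 54409 genes. Of the genes listed inside or across a member, Tmem189 (24927 counts over the 12 tumors, beside 105507 for Cebpb), Fgfr2 (1054, beside 21922 for Ctbp2) and Gm6878 (160, beside 500 for Ebf2) held the most reads, Mecomos, antisense to Mecom, held 19 beside 800 for Mecom, Gm43850, a pseudogene on the other strand of Ctbp1, held 64, and each of the others held 34 or fewer.

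CtBP proteins bind a short Pro-Leu-Asp-Leu motif, which is the link between Prdm16, Mecom, Ctbp1 and Ctbp2 that can be read in sequence. The codons of this motif were located in the longest reading frame of each gene in GENCODE release M21 (GRCm38). The motif occurs 1 time in each frame, and the coding strand around it is shown with the 4 codons of the motif in capitals. The Prdm16 window lies in exon 9 of transcript Prdm16-206, at chr4:154340894-154340935 on the minus strand, and the Mecom window in exon 7 of transcript Mecom-212, at chr3:29979750-29979791 on the minus strand.
Prdm16: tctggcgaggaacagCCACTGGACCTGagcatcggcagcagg
Mecom: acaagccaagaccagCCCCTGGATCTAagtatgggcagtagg
The windows share 30 of 42 bases and encode the same residue at 9 of 14 codons.

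The promoter of Prdm16, the member chosen by its low values in the MSU-42011 tumors, is shown. RefSeq windows of 250 bases before to 50 bases after the start were at hand for 7 of the 8 members on GRCm38.p6. The Prdm16 window spans chr4:154636824-154637123 on the minus strand, and the capitals mark its 1 match to GGGCGG, the GC box.
Prdm16 promoter: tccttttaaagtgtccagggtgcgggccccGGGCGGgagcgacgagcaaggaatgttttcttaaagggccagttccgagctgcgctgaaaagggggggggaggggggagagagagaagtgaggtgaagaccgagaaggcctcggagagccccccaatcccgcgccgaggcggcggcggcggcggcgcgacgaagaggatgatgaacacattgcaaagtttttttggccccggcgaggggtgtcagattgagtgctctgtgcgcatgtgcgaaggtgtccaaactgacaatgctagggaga
The letters AGGTCA, the half-site of nuclear receptors that pair with RXR, do not occur on either strand of this window. The 7 members have 9 windows, since Mecom and Ctbp2 have a pair each. AGGTCA occurs in 3 of the 9 windows (of Mecom, Ehmt1 and Ctbp1), and in 16.3% of the 32851 windows of the same length in the RefSeq table. GGGCGG occurs in 5 of the 9 windows and in 35.7% of all windows. The GC content of the Prdm16 window is 61.0%, beside a median of 52.7% over all windows. A match or its absence describes these letters in this window only.

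Total counts ran from 16583413 to 25925027 per tumor. Values are given as normalized CPM, counts relative to the size of the library after scaling with edgeR's TMM factors. The smallest level taken as above 0, 3 counts, was 0.11 to 0.184 CPM depending on the tumor. The first bexarotene tumor stood apart: its median correlation with the other tumors was 0.915, against 0.961 or more for the rest. Its 8 fibroblast markers summed to 11287 CPM, against 75.7 to 899 CPM in the other 11 tumors. Of the luminal markers, Epcam lay between 1353 and 2533 CPM and Krt8 between 485 and 1225 CPM in all tumors. Krt19, Foxa1 and Pgr had the lowest means of the luminal list. In control, MSU-42011 and bexarotene tumors Krt19 averaged 0.894, 0.170 and 7.63 CPM. Foxa1 averaged 0.0134, 0.0273 and 1.06 CPM, and Pgr 0.0355, 0 and 1.13 CPM in the same order. Of the fat cell markers, Adipoq was at 1.25 CPM or less, Plin1 at 2.32 CPM or less, and Ucp1, the uncoupling protein of brown fat, at 0.237 CPM or less. Others were higher, with Fabp4 between 12.1 and 76.3 CPM, and Plin4, Cfd and Car3 reaching 11.6, 7.64 and 37.2 CPM, and the highest value of each of these 4 was in the first bexarotene tumor. In bulk tumor RNA, fewer cells of a type and less RNA per cell cannot be told apart.

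Prdm16, the member chosen by its low values in the MSU-42011 tumors, is described first and not ranked against the others. The control tumors had 56, 183, 84 and 109 counts, or 3.32, 8.66, 4.49 and 4.70 normalized CPM. The MSU-42011 tumors had 6, 8, 7 and 35 counts, or 0.330, 0.485, 0.379 and 1.47 normalized CPM. The bexarotene tumors had 168, 187, 147 and 52 counts, or 6.20, 8.92, 7.12 and 3.19 normalized CPM. All 4 MSU-42011 tumors lay below all 8 other tumors, and the control and bexarotene ranges overlapped. With 6 to 35 counts per MSU-42011 tumor, the counting error of these values is large.

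The mean level of Prdm16 was 5.29 ± 2.33 CPM in control tumors, 0.665 ± 0.538 in MSU-42011 tumors and 6.36 ± 2.40 in bexarotene tumors (SD, n = 4 each). The fitted log2 fold change of MSU-42011 against control was -2.95 (SE 0.52), or 7.74-fold lower. Against bexarotene it was -3.22 (SE 0.53), or 9.30-fold lower. These values chose the gene and are given with no test. Leaving out the fourth MSU-42011 tumor, the highest of its group, gave -3.72 against control and -3.98 against bexarotene. Bexarotene was not the contrast Prdm16 was chosen by, and there the log2 fold change against control was 0.26 (95% interval -0.76 to 1.29), with an adjusted p of 0.952 by edgeR and an exact two-sided permutation p of 0.543. That interval runs from a ratio of 0.591 to a ratio of 2.44.

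**Figure D1:**
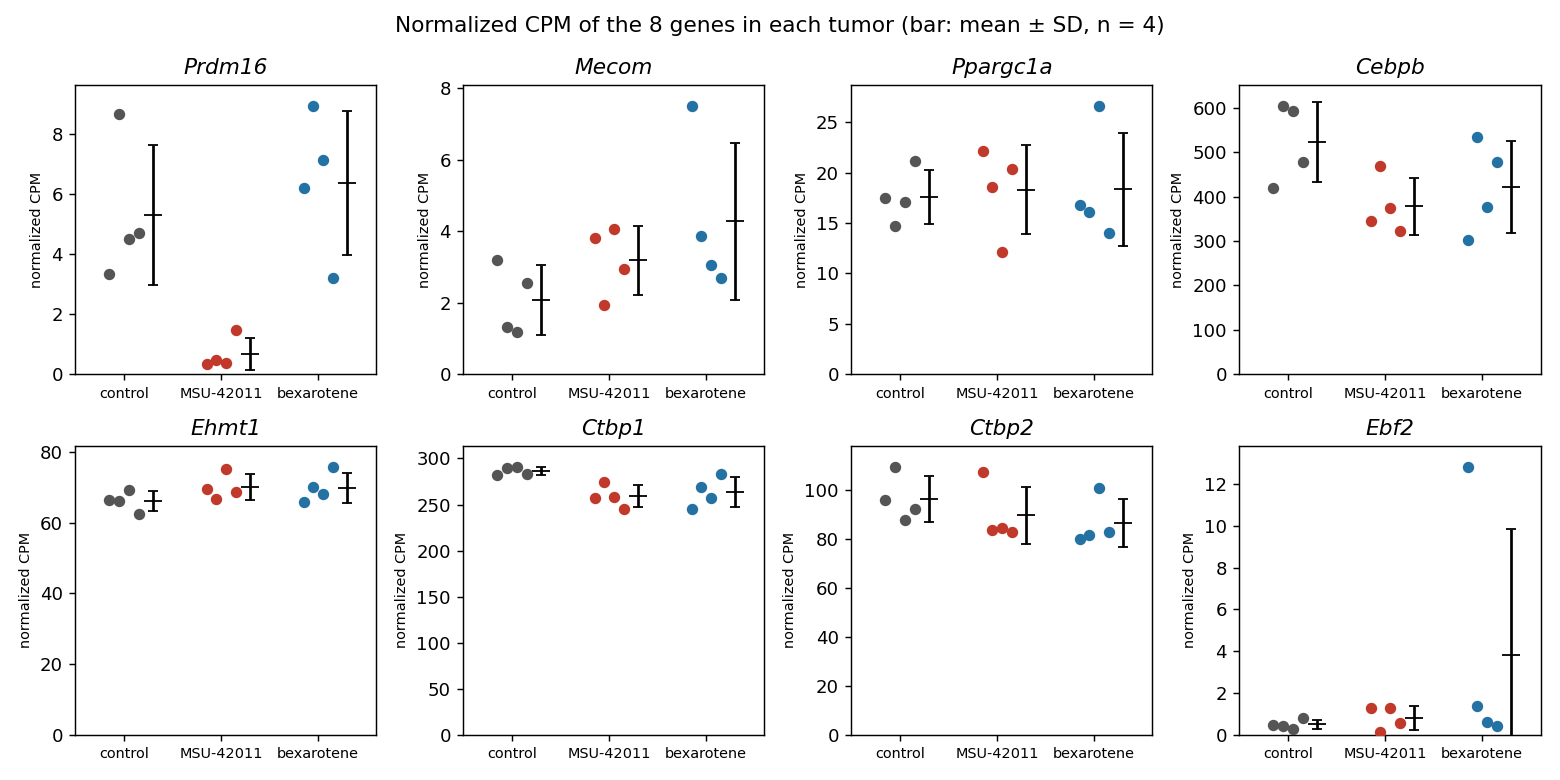
Normalized CPM (y axis, from 0) of each of the 8 genes by diet (x axis), with 1 point per tumor in the order of replicates 1 to 4, and the mean ± SD (n = 4) beside them; the bar of Ebf2 in bexarotene tumors runs below 0 and is cut there. The Prdm16 points of the MSU-42011 tumors lie between 0.330 and 1.47 CPM, below every other tumor, while the Ebf2 mean of the bexarotene group is raised by 1 tumor at 12.8 CPM.

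Mecom, the paralog of Prdm16, was low in all groups. Its normalized CPM was 3.20, 1.33, 1.18 and 2.54 in control tumors, 3.79, 1.94, 4.06 and 2.93 in MSU-42011 tumors, and 7.49, 3.86, 3.05 and 2.70 in bexarotene tumors. Every range overlapped the others, and the highest value was that of the first bexarotene tumor. Mecom had a log2 fold change of 0.63 for MSU-42011 against control (95% interval -0.29 to 1.55, edgeR adjusted p = 1.000, exact permutation p = 0.200). For bexarotene against control it was 1.06 (0.13 to 1.98, edgeR adjusted p = 0.762, exact permutation p = 0.0857), and 0.64 without the first bexarotene tumor. MSU-42011 against bexarotene gave -0.43 (-1.34 to 0.48, edgeR adjusted p = 0.997), and -0.01 without that tumor. No Mecom difference passed the test.

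The balance of the paralogs was read per length, on FPKM, the authors' count divided by the library total and a length of the gene. The ratio of Prdm16 to Mecom FPKM ran from 0.577 to 3.64 in control tumors, from 0.0484 to 0.278 in MSU-42011 tumors and from 0.461 to 1.30 in bexarotene tumors. The authors' length for a gene was the mean length of its transcripts (4870 bases for Prdm16 and 2711 for Mecom). With the gene length listed in the table (9321 and 12427 bases), the ratio ran from 1.38 to 8.71, from 0.116 to 0.667 and from 1.10 to 3.11. Mecom was thus above Prdm16 in 4 of 4 MSU-42011 tumors on both scales, while the order in the other groups depended on the length. This ratio holds the Prdm16 values that chose the gene and has no test.

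Cebpb encodes C/EBPβ, a partner of PRDM16 and a regulator of mammary and fat cell differentiation. It was the most abundant member, at 419, 603, 593 and 477 normalized CPM in control tumors. The MSU-42011 tumors had 344, 470, 374 and 322 CPM and the bexarotene tumors 301, 534, 377 and 477 CPM. The MSU-42011 and control ranges overlapped through 1 MSU-42011 tumor at 470 CPM. The log2 fold change of Cebpb for MSU-42011 against control was -0.47 (95% interval -0.89 to -0.05), with an unadjusted p of 0.0320 and an adjusted p of 1.000 by edgeR, and an exact permutation p of 0.0571. It was -0.31 for bexarotene against control (-0.73 to 0.11, edgeR adjusted p = 0.870) and -0.16 for MSU-42011 against bexarotene (-0.58 to 0.26, edgeR adjusted p = 0.997). Cebpb shares 908 bases with Tmem189 on the other strand, and since the strand setting of the counting is not given in the sources used here, reads from this stretch cannot be assigned to either gene.

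Ppargc1a encodes PGC-1α, the coactivator that drives mitochondrial genes. It had 17.5, 14.7, 17.1 and 21.2 normalized CPM in control tumors, 22.2, 18.6, 12.1 and 20.4 in MSU-42011 tumors, and 16.8, 16.1, 26.6 and 14.0 in bexarotene tumors. The groups overlapped fully. The log2 fold changes of Ppargc1a were 0.06 (95% interval -0.45 to 0.56) for MSU-42011 against control, 0.06 (-0.44 to 0.56) for bexarotene against control and -0.003 (-0.51 to 0.50) for MSU-42011 against bexarotene, with edgeR adjusted p from 0.979 to 1.000.

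Ehmt1, which encodes a methyltransferase of lysine 9 of histone H3, varied little. It had 66.3, 66.1, 69.2 and 62.3 normalized CPM in control tumors, 69.5, 66.6, 75.2 and 68.5 in MSU-42011 tumors, and 65.7, 69.97, 67.9 and 75.7 in bexarotene tumors. All ranges overlapped. The log2 fold change of Ehmt1 was 0.09 (95% interval -0.09 to 0.26) for MSU-42011 against control, 0.08 (-0.10 to 0.26) for bexarotene against control and 0.003 (-0.17 to 0.18) between the agonists, with edgeR adjusted p of 0.914 or more.

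Ctbp1 and Ctbp2 encode the corepressors that bind the motif shown above. Ctbp1 had 282, 289, 291 and 283 normalized CPM in control tumors, 257, 274, 258 and 245 in MSU-42011 tumors, and 245, 269, 258 and 283 in bexarotene tumors. The MSU-42011 tumors were all below the control tumors, while the bexarotene tumors overlapped both groups. The log2 fold change of Ctbp1 for MSU-42011 against control was -0.15 (95% interval -0.33 to 0.04, 1.11-fold lower), with an exact permutation p of 0.0286, the smallest that 4 against 4 tumors can give, and an edgeR adjusted p of 1.000. For bexarotene against control it was -0.12 (-0.30 to 0.06, edgeR adjusted p = 0.882), and between the agonists -0.03 (-0.21 to 0.16, edgeR adjusted p = 0.997).

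Ctbp2 had 96.2, 109, 87.7 and 92.4 normalized CPM in control tumors, 107, 83.9, 84.6 and 83.0 in MSU-42011 tumors, and 80.1, 81.7, 101 and 83.0 in bexarotene tumors. In each treated group 3 tumors lay between 80.1 and 84.6 CPM and 1 tumor above 100 CPM. The log2 fold changes of Ctbp2 were -0.10 (95% interval -0.36 to 0.15) for MSU-42011 against control, -0.16 (-0.41 to 0.10) for bexarotene against control and 0.05 (-0.20 to 0.31) between the agonists, with edgeR adjusted p of 0.889 or more.

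Ebf2, the factor of brown fat precursors, was the rarest member in control tumors, with 8, 9, 5 and 19 counts, or 0.475, 0.426, 0.267 and 0.819 normalized CPM. The MSU-42011 tumors had 23, 2, 24 and 14 counts, or 1.26, 0.121, 1.30 and 0.587 CPM. The bexarotene tumors had 347, 29, 13 and 7 counts, or 12.8, 1.38, 0.630 and 0.429 CPM. The groups overlapped, and the first bexarotene tumor, the one with high fibroblast markers, held most of the Ebf2 counts of its group. The log2 fold change of Ebf2 for bexarotene against control was 2.93 (95% interval 0.68 to 5.17, edgeR adjusted p = 0.762, exact permutation p = 0.171) with this tumor and 0.70 without it. MSU-42011 against bexarotene gave -2.22 (-4.38 to -0.06, edgeR adjusted p = 0.997), and -0.002 without it, and MSU-42011 against control gave 0.70 (-1.53 to 2.94, edgeR adjusted p = 1.000). The part of the fibroblast markers in the Ebf2 value was not tested.

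**Figure D2:**
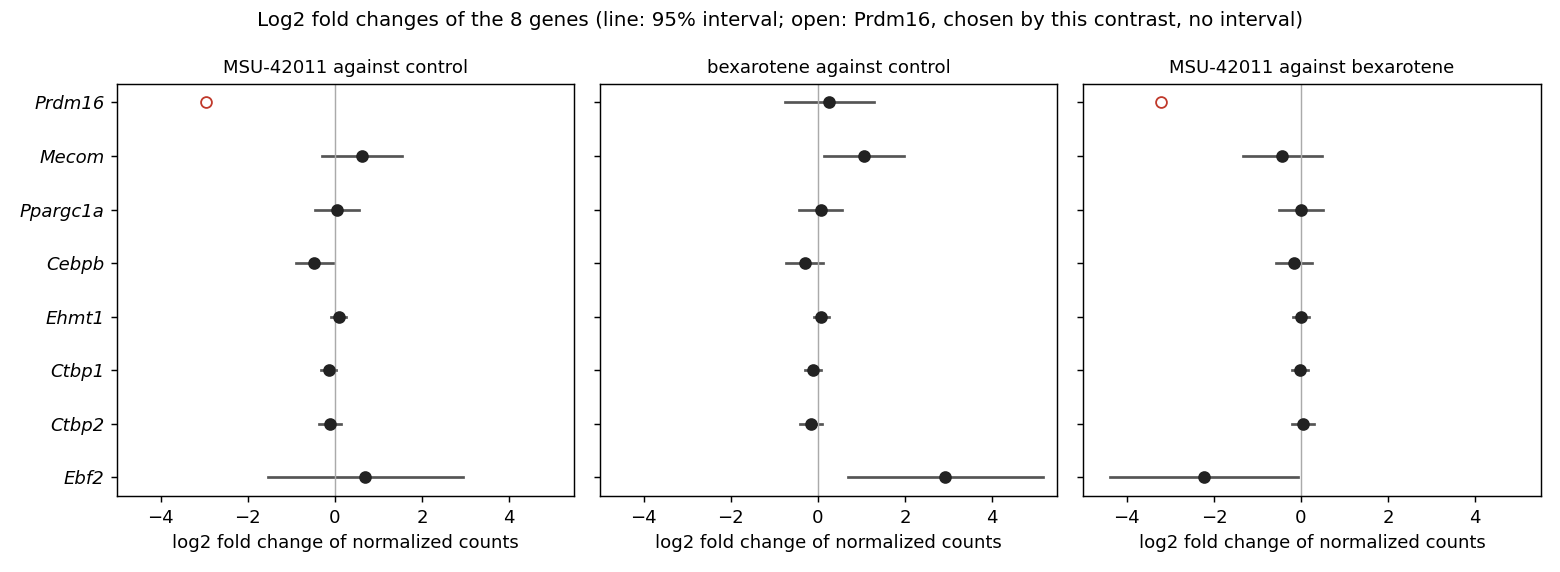
Log2 fold changes of normalized counts (x axis) of the 8 genes (rows) in the 3 comparisons (panels), with lines for the 95% interval of the edgeR fit; open points mark Prdm16 where the contrast chose it, with no interval. Prdm16 lies at -2.95 and -3.22 in the contrasts with MSU-42011 and at 0.26 for bexarotene against control, while Ehmt1, Ctbp1, Ctbp2 and Ppargc1a lie within 0.16 of 0 in all 3 panels.

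The 3 comparisons share tumors, so their values are set side by side and not correlated. None of the 7 members other than Prdm16 passed an adjusted p of 0.05 by edgeR in any comparison, nor did any of the 15504 genes (0% called in MSU-42011 against control, 0% in bexarotene against control and 0% in MSU-42011 against bexarotene). At an unadjusted p under 0.05, edgeR passed 309 genes (1.99%), 998 genes (6.44%) and 612 genes (3.95%) in these comparisons. Of the 7 members other than Prdm16, Cebpb was among them in the first, Mecom and Ebf2 in the second, and Ebf2 in the third. Groups did not overlap for 305 genes (1.97%), 314 genes (2.03%) and 181 genes (1.17%), and of those 7 members for Ctbp1 in the first comparison alone. DESeq2 at its defaults called 1 of 29576 genes (0.00338%), 6 of 16870 (0.0356%) and 25 of 16328 (0.153%). The 1 gene in the first comparison was Prdm16, which was also among the 25 genes of the third; since those contrasts chose it, nothing is read from these calls. None of the other 7 members was called by DESeq2.

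The members differed in how much tumors of 1 group varied. The residual SD on the log2 scale was 0.06 for Ctbp1, 0.08 for Ehmt1, 0.16 for Ctbp2, 0.29 for Cebpb, 0.35 for Ppargc1a, 0.60 for Mecom, 0.69 for Prdm16 and 1.43 for Ebf2. Ctbp1 and Ehmt1 were the steadiest, and Mecom, Prdm16 and Ebf2, the members with the lowest FPKM, varied most.

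Levels were compared between genes on the authors' FPKM. The means in control tumors were 339 for Cebpb, 214 for Ctbp1, 79.5 for Ctbp2, 26.1 for Ehmt1, 5.65 for Ppargc1a, 1.06 for Prdm16, 0.740 for Mecom and 0.134 for Ebf2. From Cebpb down to Ppargc1a, each gene was above the next in 4 of 4 tumors of every group, with no overlap of ranges. Prdm16 and Mecom overlapped in control and bexarotene tumors. In MSU-42011 tumors the mean FPKM of Prdm16 was 0.139 ± 0.113 and overlapped that of Ebf2 at 0.234 ± 0.164 (SD, n = 4). With the listed gene lengths the control means were 339 for Cebpb, 62.4 for Ctbp1, 15.1 for Ctbp2, 7.93 for Ehmt1, 2.605 for Ppargc1a, 0.551 for Prdm16, 0.162 for Mecom and 0.0695 for Ebf2, in the same order.

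**Figure D3:**
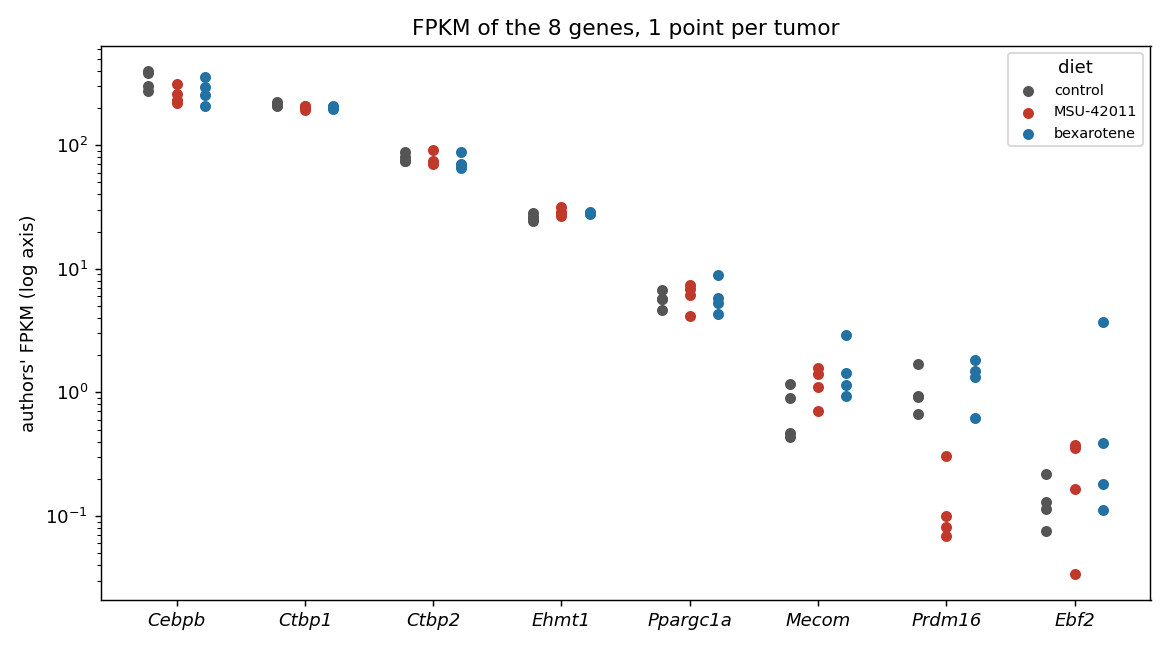
The authors' FPKM on a log axis (y) of the 8 genes (x) with 1 point per tumor and a color per diet. Cebpb, Ctbp1, Ctbp2, Ehmt1 and Ppargc1a form separate steps with the 3 diets side by side, and Prdm16 spans from 0.0688 to 1.84 FPKM with the MSU-42011 tumors at the bottom.

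The genes around Prdm16 were read in the same way. The 3 genes listed inside it had 0 counts in all tumors. Arhgef16, the nearest gene on one side at 14449 bases, had 61.3 ± 2.48 normalized CPM in control tumors, 58.3 ± 4.998 in MSU-42011 tumors and 59.6 ± 13.8 in bexarotene tumors (SD, n = 4), a log2 fold change of -0.07 for MSU-42011 against control (edgeR adjusted p = 1.000). Gm13111, 703 bases away on the other side, had 3 counts in all. Beyond Arhgef16, the log2 fold change for MSU-42011 against control was 0.40 for Megf6 and -0.05 for Wrap73. Beyond Gm13111 it was -0.36 for Mmel1, -0.22 for Fam213b and 0.38 for Tnfrsf14, and none of these genes passed the test.

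The other PRDM genes that passed the filter had higher means in MSU-42011 than in control tumors. Of 15 genes in the family list, Prdm16 and Mecom included, 9 passed the filter, 8 of these had a positive log2 fold change for MSU-42011 against control and 0 passed the test. The median over the 9 was 0.18, beside 0.002 over all tested genes. Bexarotene gave 0.24 against control (0.03 over all genes), while MSU-42011 gave -0.005 against bexarotene (-0.02 over all genes). With single tumors left out these 3 medians of the family ran from 0.17 to 0.30, from 0.16 to 0.29 and from -0.07 to 0.07. Prdm2, the most abundant, had means of 52.7, 62.2 and 60.4 CPM in control, MSU-42011 and bexarotene tumors. Prdm9, the methyltransferase that places recombination sites in germ cells, had means of 5.27, 6.92 and 7.35 CPM. Prdm11 had 7.99, 9.88 and 9.58 CPM, Prdm10 11.5, 13.1 and 13.1 CPM, Prdm15 24.6, 25.92 and 23.6 CPM, and Prdm4 20.7, 20.8 and 20.7 CPM. Prdm1, a transcriptional repressor that drives plasma cell differentiation, had means of 2.71, 2.997 and 3.19 CPM. Prdm13 was at 0 counts in all tumors, and Prdm12 and Prdm14 had means of 0.0151 CPM or less. Prdm6 averaged 0.0297, 0.0151 and 0.291 CPM and Prdm8 0.0612, 0.0542 and 0.744 CPM. The control and MSU-42011 means of both lay below the smallest level taken as above 0, so their order is not read. The bexarotene means rested mostly on 1 tumor for each gene, at 1.07 CPM for Prdm6 and 2.55 CPM for Prdm8.

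Of 21 other factors of the PRDM16 network 19 were tested and 0 passed in any comparison. Their medians were -0.03, -0.02 and 0.04 in MSU-42011 against control, bexarotene against control and MSU-42011 against bexarotene. Over all genes the medians were 0.002, 0.03 and -0.02. With single tumors left out, those of the factors ran from -0.05 to 0.06, from -0.07 to 0.06 and from -0.06 to 0.11. Of the 3 RXR genes, Rxra averaged 91.0, 86.0 and 74.7 CPM in control, MSU-42011 and bexarotene tumors, and Rxrb averaged 73.6, 72.0 and 68.4 CPM. Rxrg was at 0.221 CPM or less, with 0 counts in all MSU-42011 tumors and in some tumors of both other groups. Its highest control value was 0.0862 CPM, below the smallest level taken as above 0, so no difference is read from it. Pparg, the RXR partner that drives fat cell formation, averaged 0.888, 0.631 and 1.16 CPM, and its log2 fold change for bexarotene against control turned from 0.41 to -0.96 without the first bexarotene tumor. Of 14 genes of the CtBP and EHMT corepressor complex, 3 of them members, 14 were tested and 0 passed, with medians of -0.007, 0.02 and -0.04. Ehmt2, the partner enzyme of EHMT1, averaged 222, 206 and 219 CPM, Zbtb7b, a zinc finger factor of the network, 147, 139 and 149 CPM, and Kdm1a, a histone demethylase of the complex, 101, 91.7 and 100.3 CPM.

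Within the C/EBP family, 6 of 7 genes were tested and 0 passed. Medians were -0.05, -0.06 and -0.14 in the same order of comparisons. With single tumors left out they ran from -0.13 to -0.005, from -0.10 to -0.03 and from -0.19 to 0.002. Cebpd averaged 41.3 ± 26.9 CPM in control tumors, 19.9 ± 8.39 in MSU-42011 tumors and 32.0 ± 18.1 in bexarotene tumors (SD, n = 4), a log2 fold change of -1.05 for MSU-42011 against control with an unadjusted p of 0.0473 and an adjusted p of 1.000 by edgeR. Cebpa averaged 54.1, 53.6 and 61.3 CPM, Cebpg 82.0, 83.1 and 79.6 CPM, Cebpz 51.2, 53.5 and 48.8 CPM, and the stress factor Ddit3 17.3, 16.3 and 17.7 CPM. Cebpe was at 0 counts in all MSU-42011 tumors and in some tumors of both other groups, at 0.0473 CPM or less in control tumors and 0.286 CPM or less in bexarotene tumors.

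In the EBF family, 3 of 4 genes were tested and 0 passed. The median log2 fold change of bexarotene against control was 2.14 with the first bexarotene tumor and 0.47 without it, that of MSU-42011 against bexarotene -1.85 and -0.04, and that of MSU-42011 against control 0.42 with or without it. Ebf1, a factor of B cells and fat cells, ran from 1.16 to 24.5 CPM among bexarotene tumors and from 1.23 to 3.25 CPM in the other tumors. Ebf3 ran from 0.726 to 11.8 CPM among bexarotene tumors and from 0.385 to 1.63 CPM in the others, and Ebf4 stayed at 0.886 CPM or less. The highest values of Ebf1, Ebf2, Ebf3 and the summed fibroblast list were all in the first bexarotene tumor. The part of the fibroblast markers in the EBF values was not tested.

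Of the genes of brown and beige fat, the program PRDM16 is known for, several defining ones were near 0. Of 22 genes on this list 21 had at least 1 count, 11 were tested and 0 passed, with medians of 0.02, -0.12 and -0.04 in the same order of comparisons, beside 0.002, 0.03 and -0.02 over all genes. The median of bexarotene against control ranged from -0.17 to 0.09 when single tumors were left out, and was positive without the first (0.09) or second control tumor (0.06) or without the third (0.04) or the fourth bexarotene tumor (0.02). With no filter on low counts it was 0.05. The median of MSU-42011 against control ranged from -0.07 to 0.09 when single tumors were left out. It was negative without the fourth control tumor (-0.07) or the second MSU-42011 tumor (-0.04). That of MSU-42011 against bexarotene was 0.06 without the first bexarotene tumor. The summed level of the list was 114 to 128 CPM in control tumors, 112 to 141 in MSU-42011 tumors and 110 to 130 in bexarotene tumors. Cox7a1, a muscle and brown fat subunit of cytochrome c oxidase, averaged 12.3, 13.4 and 15.1 CPM, Letmd1, a mitochondrial protein, 40.6, 41.3 and 42.4 CPM, and Epsti1 18.8, 14.0 and 15.98 CPM. Cidea, a lipid droplet protein of brown fat, averaged 1.44, 1.34 and 1.25 CPM, and Elovl3 had 0 counts.

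Mitochondrial targets of PGC-1α, the coactivator encoded by Ppargc1a, did not pass the test either. All 16 genes of the list were tested and 0 passed, with medians of -0.03, -0.02 and -0.003. Atp5b, a subunit of ATP synthase, averaged 1007, 978 and 897 CPM, the cytochrome c oxidase subunit Cox4i1 612, 549.5 and 587 CPM, and Cox5b 155, 157 and 175 CPM. Fndc5, the precursor of irisin, averaged 20.8, 12.2 and 12.9 CPM, a log2 fold change of -0.77 for MSU-42011 against control with an unadjusted p of 0.0431 and an adjusted p of 1.000 by edgeR.

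Marker lists of other cell types were set beside Prdm16. The summed skeletal muscle list, of a lineage that PRDM16 is known to repress in precursor cells, was 154 CPM in the first control tumor and 289 CPM in the first bexarotene tumor, and between 1.72 and 4.92 CPM in the other 10 tumors. Acta1 reached 60.3 CPM in the first of these and 95.2 CPM in the second, and Ckm 4.75 and 21.03 CPM. Without the first control tumor the log2 fold change of Prdm16 for MSU-42011 against control was -3.12, and without the first bexarotene tumor that against bexarotene was -3.22. The adipocyte list summed to 685 to 1468 CPM in control tumors, 1189 to 1856 in MSU-42011 tumors and 524 to 1560 in bexarotene tumors, mostly from Cd36, Pnpla2 and Thrsp, which other cells also express. Cd36 alone averaged 640 CPM in control, 945 in MSU-42011 and 462 in bexarotene tumors. Of the 10 tested genes of the list, 8 had a negative log2 fold change for MSU-42011 against control and 0 passed the test. Their median was -0.16, beside 0.002 over all genes. With no filter on low counts the median was -0.48 over the 18 genes of the list. Leaving out single tumors gave from -0.33 (without the second MSU-42011 tumor) to -0.11 (without the first MSU-42011 tumor). Every gene of the list except Cd36, Aqp7 and Thrsp had a lower mean in MSU-42011 than in control tumors. The genes given next were chosen after their values were seen. Cfd, the adipocyte protease adipsin, averaged 2.49 CPM in control and 0.2997 in MSU-42011 tumors (log2 fold change -3.11, edgeR adjusted p = 1.000), and Car3, a carbonic anhydrase of fat and muscle, 4.52 and 0.495 CPM (-3.22, edgeR adjusted p = 1.000). The ranges of both genes overlapped, from 0.0473 to 5.99 and from 0 to 1.09 CPM for Cfd and from 0.237 to 11.1 and from 0 to 1.76 CPM for Car3. The lipid droplet genes Cidec (0.392 and 0.0881 CPM) and Plin1 (0.263 and 0.0862 CPM) were below the filter, as was the glycerol channel gene Aqp7, whose mean was higher in MSU-42011 tumors (0.0256 and 0.154 CPM). In bexarotene tumors Cfd averaged 2.12 CPM and Car3 9.51 CPM, with most of the reads in the first bexarotene tumor. Without that tumor the log2 fold change for bexarotene against control was -3.04 for Cfd, -3.97 for Car3 and 0.28 for Prdm16, and for MSU-42011 against bexarotene -0.07 for Cfd, 0.74 for Car3 and -3.22 for Prdm16. Of its 18 genes between 0 and 7 were at 0 counts in a tumor.

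The endothelial list summed to 507 to 614 CPM in control tumors, 448 to 669 in MSU-42011 tumors and 494 to 863 in bexarotene tumors, and most of it was Hey1, a Notch target that other cells also express. Hey1 averaged 394 CPM in control, 368 in MSU-42011 and 303 in bexarotene tumors, with a log2 fold change of -0.38 for bexarotene against control (unadjusted p = 0.0198 and adjusted p = 0.762 by edgeR, ranges apart). Pecam1 averaged 33.4, 37.6 and 50.8 CPM and Cdh5 34.3, 43.8 and 59.3 CPM. The log2 fold change for bexarotene against control was 0.61 for Pecam1 and 0.79 for Cdh5, and -0.13 and 0.14 without the first bexarotene tumor. The luminal list summed to 5512 to 7196, 5380 to 6003 and 3632 to 6428 CPM. The macrophage list summed to 259 to 685, 321 to 757 and 248 to 2088 CPM, with Csf1r means of 51.6, 43.6 and 83.8 CPM. The log2 fold change of Csf1r for bexarotene against control turned from 0.70 to -0.45 without the first bexarotene tumor. The myoepithelial list summed to 102 to 261, 103 to 367 and 144 to 684 CPM, and its marker Krt14 was at 2.95 CPM or less. The fibroblast list summed to 75.7 to 456, 165 to 436 and 132 to 11287 CPM, with Col1a1 means of 84.7, 105 and 994 CPM and a highest Col1a1 value of 3561 CPM, in a bexarotene tumor. The lymphocyte list summed to 4.60 to 8.23, 5.83 to 10.9 and 3.56 to 6.46 CPM. The part of these lists in the level of Prdm16 was not tested.

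**Figure D4:**
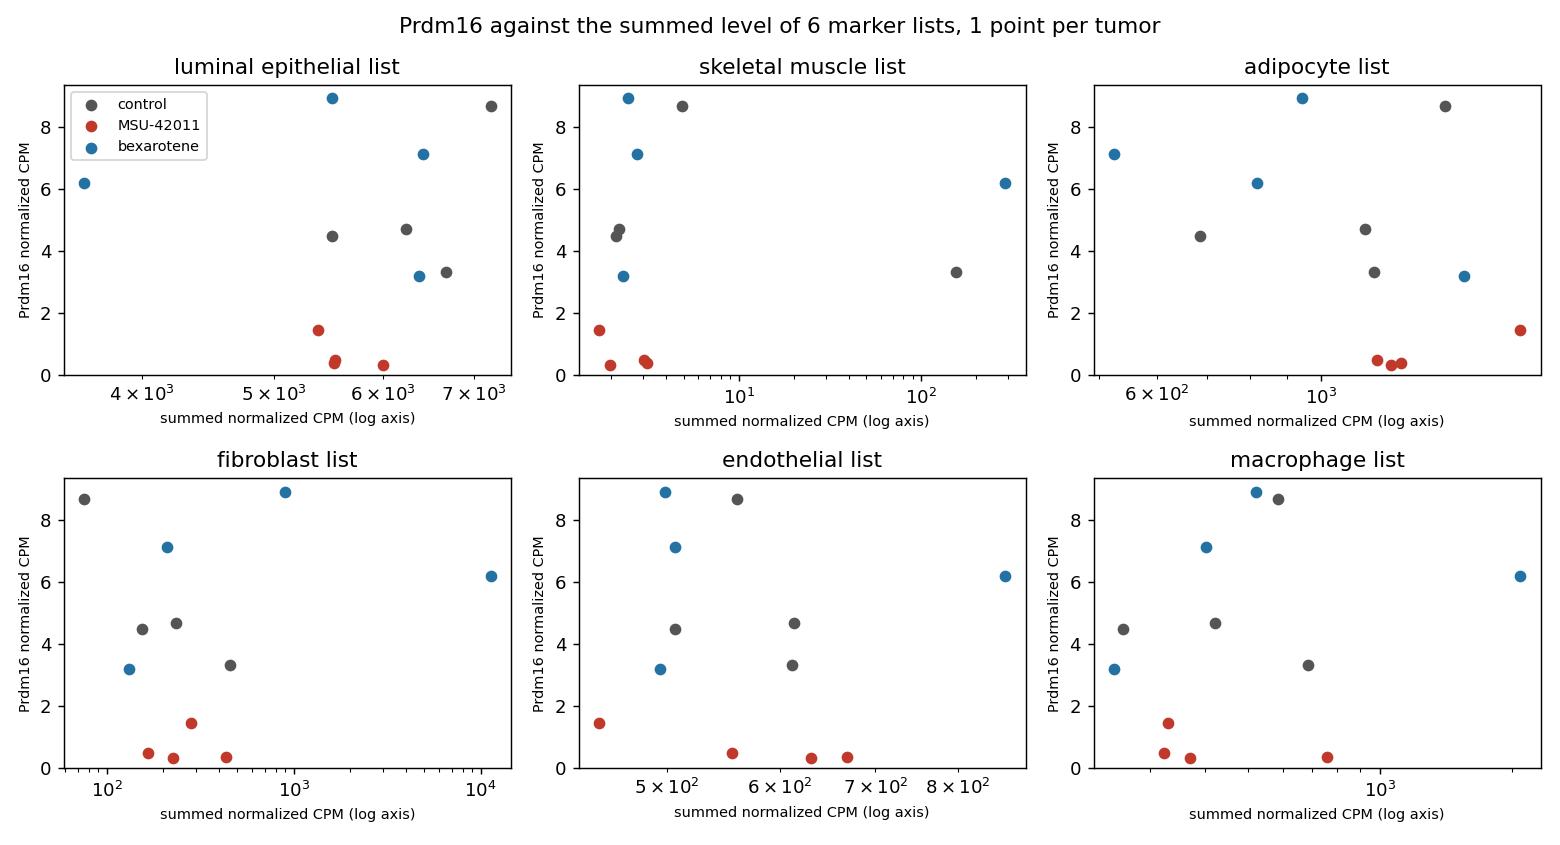
Normalized CPM of Prdm16 (y axis) against the summed normalized CPM of 6 marker lists (x axis, log scale), with 1 point per tumor and a color per diet. The MSU-42011 points lie at the bottom of each panel, from 0.330 to 1.47 CPM.

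The genes whose pattern was most like Prdm16 over the 12 tumors were found by Pearson's r of log2 normalized CPM, as a description. They were Gm13261 (r = 0.845), Gm5373 (0.840), Atp6v0d2 (0.825), Gm23823 (0.817) and Il4 (0.799), all at mean levels under 2 CPM. Atp6v0d2, a subunit of the vacuolar proton pump, had means of 1.05, 0.0888 and 0.842 CPM in control, MSU-42011 and bexarotene tumors. By deviations from the group means, which leave the diets out, the 5 genes were Ccdc18 (r = 0.893), Catsperg1 (0.869), Gm43328 (0.865), Satb1 (0.832) and Sec31b (0.8289). Among the members the highest r with Prdm16 over the 12 tumors was that of Cebpb at 0.394 and the lowest that of Ehmt1 at -0.354, a measure that holds the diet contrast by which Prdm16 was chosen. By deviations from the group means Cebpb had an r of 0.025 and Ehmt1 of -0.399, the highest was Ppargc1a at 0.205, and the lowest was Ctbp1 at -0.424, which had 0.292 over the 12 tumors. The genes were picked by these values and tumors of a group share a diet, so the values carry no p.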

How the data were processed

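Poly(A) RNA-seq of 12 tumors was analysed, 4 per diet, each grouped by its label. The authors deposited a raw count per gene, without normalization. Per the submitters' processing notes, STAR 2.6.1d, featureCounts 1.5.0-p3 and DESeq2 were used. The authors also deposited FPKM, which divide the count by the library total and by a gene length. This length was the mean GENCODE M21 transcript length, within 1 base, for 96.7% of 29865 genes, so FPKM of genes with short isoforms are raised. The genome build and strand setting are not given in the sources used here; coordinates were those of GRCm38 for 98.3% of 54409 genes.

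Members and lists were chosen with earlier results of these data known. Counts were TMM-normalized, filtered with filterByExpr and tested with edgeR 4.0.16 (quasi-likelihood F test, 1 mean per group, no covariate, Benjamini-Hochberg over 15504 genes, threshold 0.05) in R 4.3.3. Log2 CPM used a prior count of 2. Exact two-sided permutation tests compared 4 tumors with 4. The count test was also tested on simulated data. The rule for naming genes took the members, the PRDM, C/EBP and EBF families, and the 3 genes of highest mean FPKM in each other list. It also took any gene that passed the test, defining markers, neighbours and overlapping genes, and the 5 genes most like Prdm16. In the cell type lists other than the adipocyte list, the 3 genes of highest mean FPKM were not all named. Pparg, Rxra, Rxrb, Elovl3, Rxrg, Fndc5, Cfd, Car3, Cidec, Plin4, Fabp4, Aqp7, Krt19, Foxa1 and Pgr were added after their values were seen. A gene of the lists is not reported here. Alternatives were other size factors, no filter, DESeq2 1.42.0, limma 3.58.1 on log2 FPKM plus 1 or 0.1, a replicate block, the compared groups alone, and each tumor left out. Low counts limit Prdm16, Mecom and Ebf2 most.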

Additional observations from a re-analysis of the deposited data

Results flagged for a closer look

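The 4 tumors of each diet were checked for each of the 8 genes. A tumor is given here where its gap to the nearest other tumor took up most of the range of its group, beyond Dixon's 95% limit, which chance passes in about 1 in 20 sets. Prdm16 in the fourth MSU-42011 tumor was at 1.47 normalized CPM, with the next tumor at 0.485; these values chose the gene, so this one is a description. Ctbp2 in the first MSU-42011 tumor was at 107.4 CPM, with the next at 84.6. Ctbp2 in the third bexarotene tumor was at 101.1 CPM, with the next at 83.0. Ebf2 in the first bexarotene tumor was at 12.8 CPM, with the next at 1.38, and this is the tumor with the high fibroblast markers. No cause was tested for any of them.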

How the results depend on the processing

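Of the 21 log2 fold changes of the 7 members other than Prdm16, 15 kept their sign in all 20 alternatives, and none passed an adjusted p of 0.05 in any. For Prdm16, limma on log2 FPKM plus 1 gave -0.83 for MSU-42011 against control and -1.002 against bexarotene, since the added 1 exceeds most of its values. Leaving out each tumor in turn gave from -3.72 to -2.61 against control, from -3.98 to -3.00 against bexarotene, and from 0.06 to 0.60 for bexarotene against control. The count of called genes rose from 0 to 1, 6 and 25 with DESeq2 and to 7, 7 and 41 without its Cook's distance filter, in MSU-42011 against control, bexarotene against control and MSU-42011 against bexarotene. With each tumor left out it ran from 0 to 0, from 0 to 1 (Nrg1, without the second MSU-42011 tumor) and from 0 to 0.

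Signs turned for values close to 0. For Ppargc1a, MSU-42011 against bexarotene was 0.0024 with DESeq2's size factors, 0.015 without the filter, 0.0043 with DESeq2 with or without Cook's distance, 0.0017 with the replicate block, and 0.021 and 0.026 with limma on FPKM plus 1 and plus 0.1. Leaving out tumors gave -0.11 to 0.23 there, -0.048 to 0.21 for MSU-42011 against control and -0.18 to 0.16 for bexarotene against control. For MSU-42011 against bexarotene it gave -0.032 to 0.049 for Ehmt1, -0.059 to 0.015 for Ctbp1 and -0.044 to 0.14 for Ctbp2. With single tumors left out, the median of the CtBP and EHMT list also turned sign in each comparison. That of the PGC-1α target list turned sign in both comparisons with control. The cause was not tested.

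The labels do not say what the replicate numbers mean. Deviations of same-numbered tumors correlated from -0.35 to 0.35. Tumors with different numbers were not correlated beside them, so these values cannot decide whether the numbers pair the tumors. The replicate block called 0 genes in each comparison, with 326, 711 and 415 at an unadjusted p under 0.05 against 309, 998 and 612 without it, and gave Prdm16 -2.95, 0.36 and -3.31. With 6 to 35 counts, the depth limits the precision of Prdm16 in MSU-42011 tumors.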
